A study of Schizosaccharomyces pombe with 4 samples.

Results

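The 18S ribosomal RNA (rRNA) is described here through the reads that named it when the tagged RNA-binding protein Seb1 was purified from fission yeast, and in the same purification from untagged cells. The members are RDN18-1 and RDN18-2, 2 of the 7905 features that the deposited records name, and they are the 18S genes of the 2 copies of the ribosomal DNA (rDNA) unit on chromosome XII of the genome on which the reads were placed. A read was taken as 18S where its record lay on the minus strand of chromosome XII and named RDN18-1 or RDN18-2 and neither a 25S (RDN25) nor a 5.8S (RDN58) gene. The rule uses names and strand and no measured value. This gave 183 and 760 reads in untagged controls 1 and 2, and 49340 and 39448 reads in Seb1-HTP libraries 1 and 2.

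The study used CRAC, in which cells are irradiated with UV light, a tagged protein is purified with the RNA bound to it, and the cDNA of that RNA is sequenced. Libraries came from Schizosaccharomyces pombe in exponential growth at 30 °C in YES medium, irradiated for 3 min. The 2 control libraries came from the untagged parental strain (mating type h+, with the alleles ade6-M216 and leu1-32 as well as ura4-delta_18 and his3delta_1), and the 2 Seb1-HTP libraries from the same background carrying Seb1-HTP::KAN, so that all 4 share the auxotrophic markers and the irradiation. The series describes the 2 libraries of each kind as biological replicates and ties Seb1, a relative of budding yeast Nrd1, to the making of RNA 3′ ends. Although the organism is S. pombe, the records carry Saccharomyces cerevisiae gene names and lie on S. cerevisiae chromosomes. Every position below is therefore an S. cerevisiae coordinate as the files give it, of a genome release that the sources used here do not name.

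The 18S rRNA is the single RNA of the small (40S) ribosomal subunit, where it forms the decoding centre that pairs messenger RNA with transfer RNA. RNA polymerase I makes it as part of a long precursor that also holds 5.8S and 25S rRNA, and it is freed by cleavages that need small nucleolar RNAs such as U3 and many assembly factors. Being among the most abundant RNAs of a growing cell, it is a common background in purifications of RNA-binding proteins, which makes the untagged strain the reference for each value.

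Depth separated the groups. Reads naming any feature numbered 4579 and 45339 in the controls against 268030 and 231656 in the Seb1-HTP libraries, and the 18S reads came from 33, 182, 2352 and 3460 distinct fragments, a fragment being a distinct start and end. The smallest 18S share that a count of 3 reads can show was 1.64% and 0.395% of 18S reads in the controls against 0.00608% and 0.00760% in the Seb1-HTP libraries. Control 1, with 33 fragments, limits every comparison below. No source used here says whether repeats of a read had been collapsed, so that intervals and floors cover counting error only.

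The rDNA copies could not be told apart by these reads. Shifting the second copy by 9137 nt matched 2600 of its 3888 distinct intervals to intervals of the first copy (which had 3839), against 582 at the next best shift. The first copy took 50.8% and 47.2% of 18S reads in the controls against 50.3% and 49.9% with Seb1-HTP. The 95% Wilson interval of each share held an even split, the narrowest being 49.8 to 50.7% in Seb1-HTP 1. Along 18S, the copies' profiles within a library had Pearson correlations of 0.961 to 0.9995 over 37 windows, which share library and sequence. The copies were therefore superimposed, and positions are given on the first copy. The superimposed reads spanned XII 455921 to 457769 (1849 nt). The files do not mark the ends of the gene, and distances are counted from the 5′-most covered base, position 457769, since 18S is read from the minus strand.

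The share of 18S among named reads was 3.997% and 1.68% in the controls against 18.4% and 17.0% with Seb1-HTP. Both Seb1-HTP libraries stood above both controls, and the group means, 2.84% ± 1.64 (SD, n = 2) and 17.7% ± 0.976 (n = 2), differed 6.25-fold. The exact two-sided permutation p was 0.333, the smallest that 2 against 2 libraries allow. Named reads include 25S, the large-subunit rRNA, which alone held 80.5% and 89.0% of control reads against 40.4% and 38.9% of Seb1-HTP reads. Among the reads outside 25S, 18S made up 20.5% and 15.3% in the controls against 30.9% and 27.9% with Seb1-HTP. The groups again did not overlap, but the means, 17.9% ± 3.68 and 29.4% ± 2.12, were 1.64-fold apart (exact permutation p = 0.333). Counted as distinct fragments, 18S was 9.35% and 15.6% of the fragments outside 25S in the controls against 26.4% and 12.6% with Seb1-HTP, and the groups overlapped (exact permutation p = 0.667).

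Against 5.8S rRNA, the large-subunit RNA cut from the same precursor, 18S did not set the groups apart. There were 0.772 and 0.387 reads of 18S per 5.8S read in the controls, against 0.748 and 0.819 with Seb1-HTP. Control 1 lay between the 2 Seb1-HTP libraries, and the exact permutation p was 0.667. A 6.25-fold difference over named reads thus stood at 1.64-fold with 25S left out of the total, and at 0.580 ± 0.272 against 0.783 ± 0.0499 reads per 5.8S read, so that a higher 18S level and a lower 25S level cannot be told apart in the first of these values.

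**Figure D1:**
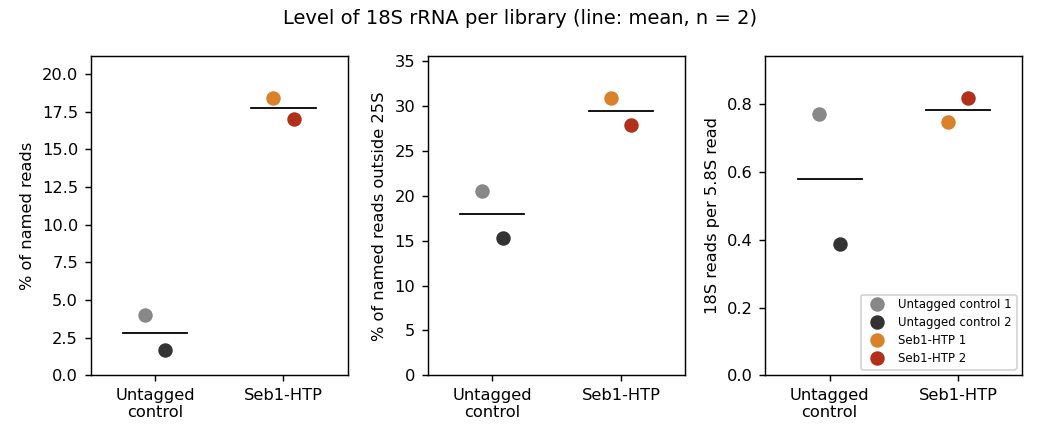
Share of 18S rRNA among named reads (left), its share among named reads outside 25S (middle) and the ratio of 18S to 5.8S reads (right), with 1 point per library and a line at the mean of each group (n = 2). The Seb1-HTP libraries lie above the controls at 18.4% and 17.0% against 3.997% and 1.68% on the left, are 1.64-fold higher in the middle, and overlap with them on the right.

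Each 18S gene was then tested across all features, with a read counted for every feature that its record named. RDN18-1 had 93 and 359 reads in the controls against 24816 and 19710 with Seb1-HTP, or 14114 ± 8762 and 88835 ± 5306 reads per 1000000 named reads (mean ± SD, n = 2). Seb1-HTP over control gave a log2 ratio of 2.66 (SE 0.44, adjusted p = 5.24e-07, edgeR quasi-likelihood test with Benjamini-Hochberg adjustment). RDN18-2, with 90 and 401 control reads and 24536 and 19770 Seb1-HTP reads, had one of 2.64 (SE 0.44, adjusted p = 6.02e-07 by edgeR). Neither gene's groups overlapped, but how many of all features also had their groups apart was not counted. A log2 fold change above 0 was common, in 1061 of all 1208 features, so that a higher level was not particular to 18S. Of the 1208 features tested, 7 (0.579%) were called higher with Seb1-HTP and 3 (0.248%) lower, and 6 of the 7 name the rDNA or a reading frame within it, the other being the U2 RNA LSR1. The 18S genes are copies of 1 sequence and count as 1 result. The median log2 fold change over all features was 4.86, above that of 18S, although 835 of the 1208 features had no control read. The 18S calls were lost when 25S reads left the library totals, where the log2 fold changes were 0.74 and 0.69 (adjusted p = 0.773 by edgeR), and 0 features (0%) were then called higher and 5 (0.414%) lower. They were also lost when either Seb1-HTP library was left out (adjusted p = 0.0734 without library 1 and 0.0909 without library 2, for both genes), with TMM factors (0.307), with distinct fragments (0.467) and by DESeq2 (0.979).

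Coverage along 18S was uneven, and the Seb1-HTP libraries put their reads in places that resembled each other. Reads covered 40.1% and 75.4% of the span in the controls against 97.1% and 99.9% with Seb1-HTP, with a median of 0, 3, 675 and 407 reads per base. In Seb1-HTP 1 the highest base was XII 455977, near the 3′ side, covered by 20.8% of 18S reads. In Seb1-HTP 2 it was XII 456918, covered by 24.7%. The controls peaked elsewhere, at XII 457181 with 34.4% of reads in control 1 and at XII 457129 with 18.03% in control 2. Over 37 windows of 50 nt, the shares of 18S reads correlated with r = 0.822 (Spearman 0.843) for the pair of Seb1-HTP libraries, 0.266 for the pair of controls, and 0.0103 to 0.254 across kinds. These are descriptions over neighbouring windows of 1 RNA, and the low values with the controls go with 33 and 182 control fragments, whose part in them was not tested.

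**Figure D2:**
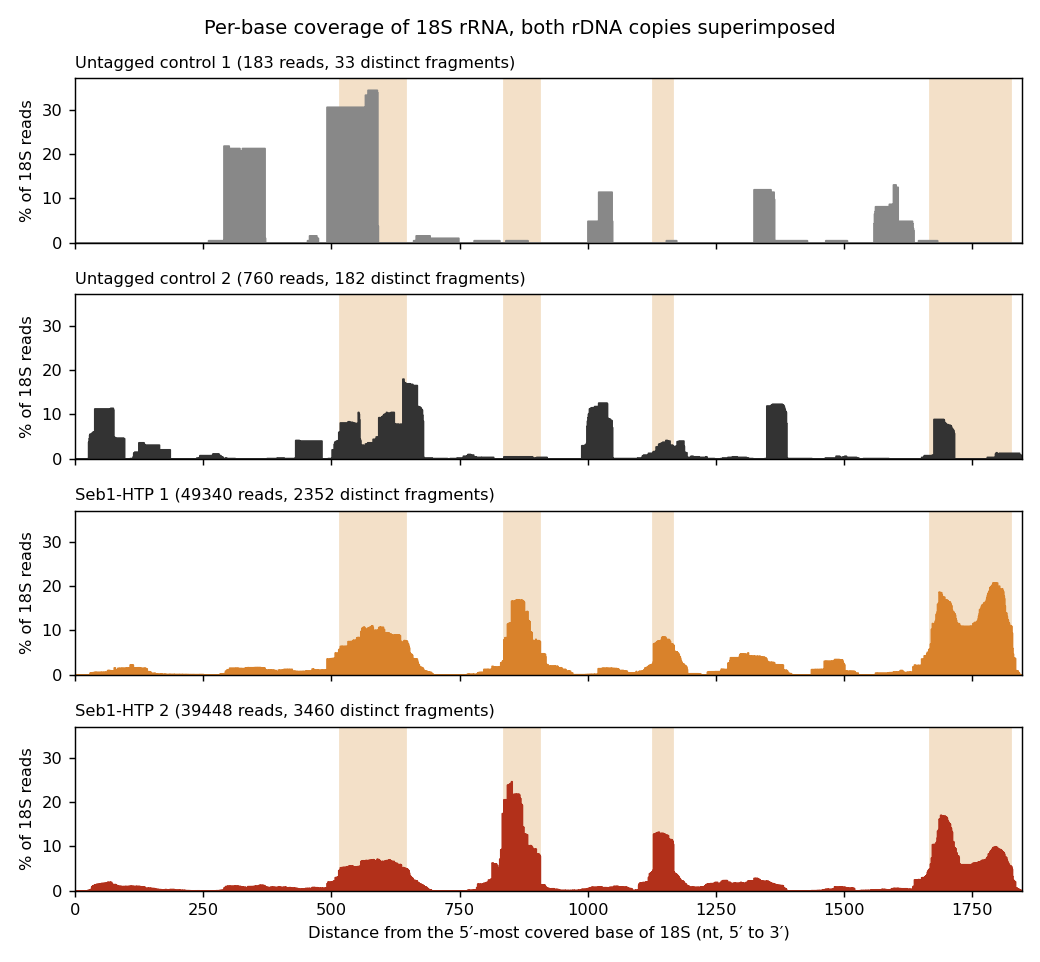
Percentage of 18S reads that cover each base of 18S in each library, against the distance from the 5′-most covered base in nt. Shaded bands mark the 4 stretches covered by at least 5% of reads in both Seb1-HTP libraries, which reach 20.8% and 24.7% at their highest base; control reads stand in a few blocks, the tallest at 34.4% in control 1.

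In both Seb1-HTP libraries 4 stretches were covered by at least 5% of 18S reads at every base. Together they made up 399 nt of the span, and 79.1% and 81.4% of Seb1-HTP 18S reads overlapped them, against 36.1% and 48.9% of control reads. Being chosen on Seb1-HTP coverage, they are described here and not tested.

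The 3′-most stretch, XII 455943 to 456101 (XII 465080 to 465238 in the second copy), lay 1668 to 1826 nt from the 5′-most base. It was overlapped by 31.4% and 24.7% of Seb1-HTP 18S reads and by 0.546% and 10.7% of control reads. The 81 reads of control 2 were largely 1 fragment of 40 nt, XII 456055 to 456094, seen 44 times, while the Seb1-HTP libraries had 621 and 687 fragments there. Within the stretch, coverage had 2 crests, and no control read covered the window between XII 456000 and 456049.

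The next stretch, XII 456603 to 456641, lay 1128 to 1166 nt from the 5′-most base and was 39 nt long. Control reads overlapping it were 0.546% and 5.39%, and Seb1-HTP reads 8.89% and 14.5%. A single fragment with exactly these ends made up 39.01% of the stretch's reads in Seb1-HTP 2, and a fragment 1 nt longer made up 12.5% in Seb1-HTP 1.

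The central stretch, XII 456863 to 456933, lay 836 to 906 nt from the 5′-most base and was nearly empty in both controls. It was overlapped by 19.2% and 26.4% of Seb1-HTP reads (222 and 253 fragments) and by 0.546% and 1.18% of control reads, which were 1 and 9 reads.

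The stretch nearest the 5′ end, XII 457123 to 457252, was 517 to 646 nt from the 5′-most base, and here the controls were no lower. It was overlapped by 34.4% and 31.7% of control reads and by 19.6% and 15.8% of Seb1-HTP reads. In control 1 it rested on 1 fragment of 99 nt, XII 457180 to 457278, which was 55 of the library's 183 reads. Seb1-HTP reads there came from 504 and 803 fragments.

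To test places along 18S, each read was put in a 50-nt window by its midpoint, and all 108 windows of the rDNA unit were fitted together. All 37 windows of 18S passed the filter of 10 reads over the 4 libraries, but 5 of them held no read in either control, 22 held none in control 1, and 14 held at least 10 control reads. With named reads as totals, Seb1-HTP was higher in 11 of the 37 and lower in 0 (edgeR, adjusted p under 0.05), against 17.6% and 2.78% of all windows. Of these 11, 9 held 0 to 5 control reads and passed the filter through Seb1-HTP alone, so that they could hardly have been called lower. Among the 14 windows with at least 10 control reads, 2 were called higher and 0 lower. At an unadjusted p under 0.05, 15 were higher and 0 lower, and DESeq2 called 15 higher and 0 lower. The log2 fold change was above 0 in 33 windows with a median of 3.15, and the median over all 108 windows was 2.12. In the other rRNAs, 7 of 63 windows of 25S were higher and 3 lower, and 1 of 5 windows of 5.8S was higher. With 25S reads left out of the totals, 1 of the 37 windows, XII 456000 to 456049, was higher, against 1.85% of all windows, and the medians fell to 1.09 in 18S and -0.22 over all windows. No window was called higher when either Seb1-HTP library was left out, 21 were without control 1, and 17 were without control 2. TMM factors left 0 of the 11 called, and distinct fragments 1.

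The window with the largest mean part of Seb1-HTP 18S reads, XII 456900 to 456949 in the central stretch, held 1 and 4 control reads and 4906 and 7654 Seb1-HTP reads. As a share of 18S reads this was 0.546% and 0.526% against 9.94% and 19.4%. The window was chosen on Seb1-HTP share and passed the filter through Seb1-HTP alone, so that both Seb1-HTP libraries lying far above both controls adds no support. Its level differed by a log2 fold change of 7.68 (SE 1.78), with an adjusted p of 0.000378 by edgeR. Its neighbour XII 456850 to 456899 held 0, 5, 3752 and 2690 reads in the same order, and also passed the filter through Seb1-HTP alone. The neighbour had a log2 fold change of 7.24 (SE 2.01) and an adjusted p of 0.00417 by edgeR. At XII 456600 to 456649, the short stretch, the shares were 0.546% and 3.95% in the controls against 8.33% and 13.1% with Seb1-HTP, and the log2 fold change in level was 5.28 (SE 1.63), with an adjusted p of 0.0128 by edgeR.

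In the 3′-most stretch, the groups separated least in the window where control 2 had its repeated fragment. That window, XII 456050 to 456099, held 0% and 8.95% of 18S reads in the controls against 7.85% and 11.5% with Seb1-HTP, so that control 2 lay between the Seb1-HTP libraries in share of 18S, although its level per named read was lower (log2 fold change 4.34 with an SE of 1.57 and an adjusted p of 0.0356 by edgeR). The adjoining window XII 456000 to 456049 held no control read and 5493 and 2349 Seb1-HTP reads. Seb1-HTP coverage was nearly level across the middle of this window, close to these counts, and no deletion was listed there. The counts thus come largely from intervals that run across the window and have their midpoint in it. Bases between paired reads may not have been sequenced, so that contact within the window is not shown. Pooled over libraries, the ratio of the window's level to that of 3 reads over both controls was 261. The exact 95% counting interval began at 212 (adjusted p = 0.000174 by edgeR). Control 2 supplied 45339 of the 49918 pooled control reads. In control 1 alone 3 reads make up 0.0655% of named reads, against 2.05% and 1.01% in this window with Seb1-HTP. At XII 455950 to 455999 there were 0 and 4 control reads and 5060 and 1789 Seb1-HTP reads, a pooled ratio of 171 (95% counting interval 66.8 to 628, adjusted p = 0.00338 by edgeR). The 4 control reads were 2 fragments. Counting intervals of pooled ratios, here and below, take repeats as separate reads and leave out the spread between libraries. Together the 5 windows with the largest mean part of Seb1-HTP 18S reads held 47.5% and 54.5% of those reads and 1.09% and 13.9% of control 18S reads. They were chosen on Seb1-HTP share, so that a larger part with Seb1-HTP follows from the choice and is no test.

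The other 5 windows called higher were thinner. XII 456450 to 456499 held 0 and 4 control reads and 1291 and 812 Seb1-HTP reads, a pooled ratio of 52.5 (95% counting interval 20.5 to 193). XII 456100 to 456149 held 1 and 0 control reads against 894 and 1005, and XII 457650 to 457699, the one nearest the 5′ end, 0 and 1 against 789 and 436. XII 456300 to 456349 and XII 456800 to 456849 held no control read, and their Seb1-HTP reads were 391 and 53, and 847 and 89. Both Seb1-HTP libraries were above both controls in each of these windows, but the windows were picked as called higher, so that this adds no support. In the last pair, library 1 was far above library 2, whose 0.0229% and 0.0384% of named reads lie below the 0.0655% that 3 reads make up in control 1. Their adjusted p ran from 0.0187 to 0.0439 by edgeR.

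The windows that led in the controls were other ones. XII 457200 to 457249, in the stretch nearest the 5′ end, held 30.6% and 8.42% of 18S reads in the controls against 7.33% and 5.37% with Seb1-HTP. XII 456400 to 456449 held 12.0% in each control against 3.67% and 2.46%. In both windows the controls lay above the Seb1-HTP libraries in share of 18S reads, and neither level passed the test (log2 fold changes 0.75 and 0.70, adjusted p = 0.736 and 0.785). XII 457400 to 457449 held 21.3% in control 1, none in control 2, and 1.72% and 1.16% with Seb1-HTP, so that 1 library decided its control share.

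**Figure D3:**
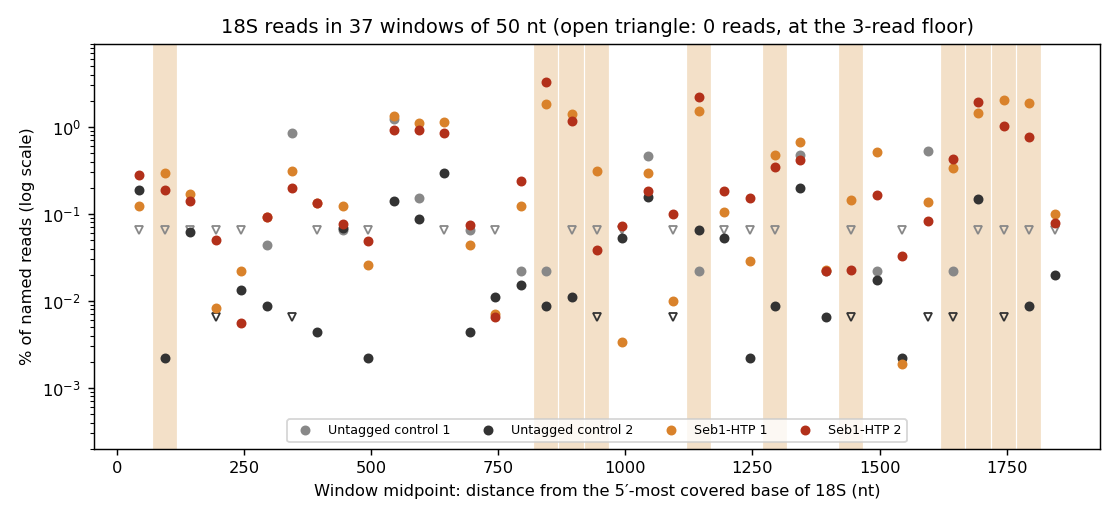
Reads in each of the 37 windows of 50 nt along 18S as a percentage of named reads (log scale), by library, with open triangles at the 3-read floor where a library had no read. Shading marks the 11 windows higher with Seb1-HTP. In the window chosen for the largest Seb1-HTP share (1 and 4 control reads, 4906 and 7654 Seb1-HTP reads) both Seb1-HTP points lie far above the controls, as the choice favours.

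A separate fit asked where reads lay along 18S whatever its level, with the 18S reads of each library as totals. By edgeR, 0 of 37 windows (0%) held a larger and 0 (0%) a smaller part of 18S reads with Seb1-HTP. At an unadjusted p under 0.05 the counts were 4 and 1, and DESeq2 called 4 and 4. The largest of the Seb1-HTP windows, XII 456900 to 456949, had a log2 fold change in share of 4.78 with an SE of 1.23 (adjusted p = 0.113 by edgeR). A difference in place between Seb1-HTP and control reads was therefore not established by the main test, and with control 2 left out 5 windows held a larger and 3 a smaller part.

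The Seb1-HTP libraries also differed from each other along 18S. Their shares were within 2-fold in 24 of the 37 windows, and in 14 of the 15 windows that held at least 1% of 18S reads in both. The ratio of library 2 to library 1 ran from 0.131 at XII 456800 to 456849 to 23.6 at XII 456750 to 456799. The 3′-most stretch was fuller in library 1, and the central and short stretches in library 2.

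Fragment ends were shared by many reads. The 5′ end at XII 456641, the edge of the short stretch, was that of 4.14% and 8.03% of Seb1-HTP 18S reads, of 0 reads in control 1 and of 1 in control 2. The 5′ end at XII 456936 held 0.724% and 8.14%, and that at XII 456933, only a few bases away, 4.77% and 3.24%. Both libraries thus began reads at the 5′ edge of the central stretch, at bases used in different proportion. The leading 3′ ends were XII 456863 (2.78% and 6.44%), XII 456603 (0.197% and 6.22%) and XII 455942 (3.46% and 1.62%), and 1 control read in all ended at any of these 3. The leading control ends were mostly those of control 1, where the 5′ end at XII 457278 held 30.6% of reads against none in control 2 and 2.45% and 0.991% with Seb1-HTP. The 10 most used 5′ ends held 90.2% and 59.1% of reads in the controls against 30.6% and 37.6% with Seb1-HTP.

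Repeats of the same fragment and read lengths describe the make-up of the libraries. Per 100 18S reads there were 18.03 and 23.9 distinct fragments in the controls against 4.77 and 8.77 with Seb1-HTP, but this count falls as depth grows. With each library thinned to the 183 reads of control 1, there were 18.03 and 41.0 in the controls against 73.2 and 71.4 with Seb1-HTP, and the order turned (exact permutation p = 0.333). At equal numbers of 18S reads, those of Seb1-HTP were thus spread over more fragments than those of either control, while the libraries still differed in raw and named reads. The mapped interval of an 18S read was on average 65.8 and 44.8 nt long in the controls against 66.6 and 54.8 nt with Seb1-HTP, which overlap (exact permutation p = 0.667). Intervals of 39 or 40 nt were common in all libraries, at 15.8%, 29.2%, 21.99% and 36.9% of 18S reads.

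**Figure D4:**
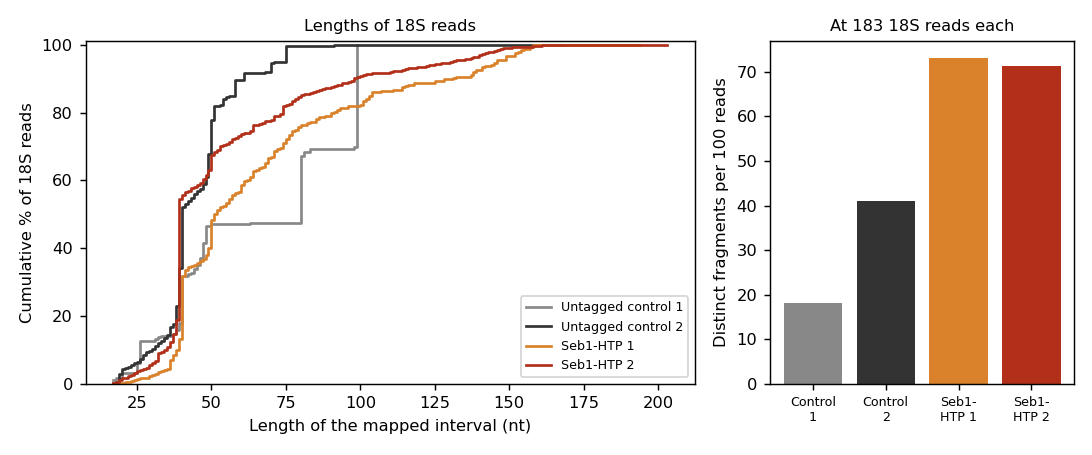
Left, cumulative percentage of 18S reads by length of the mapped interval in nt for each library, with steps at 39 to 40 nt in all of them. Right, distinct fragments per 100 18S reads with every library thinned to 183 reads (mean of 20 draws), at 18.03 and 41.0 in the controls against 73.2 and 71.4 with Seb1-HTP.

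Deletions and substitutions in CRAC reads can mark the base that was cross-linked. Where S. pombe reads are placed on S. cerevisiae sequence, a base that differs between the species would be listed in the same way. The sequences were not compared here, and these sources cannot be told apart at a single position. At least 1 substitution was listed in 87.4% and 91.4% of control 18S reads against 96.3% and 94.7% of Seb1-HTP reads. Per 1000 bases of the mapped intervals the numbers of substitutions were 53.3, 52.2, 53.0 and 56.4, so that the libraries were close on this measure. The intervals include any bases between paired reads that were not sequenced, so that these are not rates per sequenced base. In Seb1-HTP 1, 49 of the 1627 positions covered by at least 20 reads were substituted in at least 95% of reads, and 16 of them were so in both Seb1-HTP libraries. In Seb1-HTP 2, which did not choose them, 93.3% of the bases at the 49 positions were substituted. The controls covered 13 and 37 of the 49, and 86.3% and 78.4% of their bases there were substituted, so that these values come from unlike sets of positions. XII 457730, near the 5′ end, was substituted in 86 of 86 reads of control 2 and in 99.7% and 98.6% of Seb1-HTP reads.

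Some positions differed between libraries, and 2 of these rested on few control fragments. XII 457289 was substituted in 31 of 31 reads of control 2 and in 1.23% and 1.78% of Seb1-HTP reads, but those 31 reads came from 2 fragments. XII 456055 was substituted in 44 of 44 reads of control 2, all 1 fragment whose 3′ end is that base, and in 48.1% and 70.2% of Seb1-HTP reads. At XII 456627, inside the short stretch, the percentages were 55.6 in control 2 (27 reads from 14 fragments) and 96.9 and 96.8 with Seb1-HTP.

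Deletions were listed in 2.19% and 7.37% of 18S reads in the controls against 15.9% and 12.4% with Seb1-HTP. Both Seb1-HTP libraries were above both controls, with means of 4.78% ± 3.66 and 14.2% ± 2.51 (n = 2) and an exact permutation p of 0.333. As distinct fragments the values were 9.09% and 10.99% against 15.9% and 16.3%, and the groups did not overlap. The control values rest on 3 of 33 and 20 of 182 fragments. Their Wilson intervals, 3.14 to 23.6% and 7.23 to 16.4%, hold both Seb1-HTP values, so that the fragments do not establish a difference. In control 1, the 183 reads held 4 deletions in all, 2 of them at 1 position. The stretch nearest the 5′ end, which the controls covered best, had deletions in 0% of 63 and 6.22% of 241 control reads and in 24.2% and 21.3% of Seb1-HTP reads. The control reads there were 4 and 50 fragments, and 1 fragment made up 87.3% of those of control 1, so that this contrast too rests on few fragments.

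Deletions in the Seb1-HTP libraries were spread over 429 and 347 positions, of which the 5 most used held 23.6% and 22.4% of them. Of the 1405 positions covered by at least 100 reads in both, 7 were deleted in at least 5% of reads in both, 32 in at least 1%, and 867 in no read. Coverage counts whole mapped intervals, so that a position deleted in no read was not necessarily sequenced in each of them. The 7 lay in 2 of the 4 stretches. In the 3′-most stretch, XII 455981 was deleted in 11.4% and 13.1% of reads (1134 and 487 reads, from 29 and 54 fragments), almost always together with XII 455982. No control read covered XII 455981 in control 1 and 3 did in control 2, so that the controls give no comparison there. In the stretch nearest the 5′ end, XII 457130 and XII 457131, XII 457135 and XII 457136, and XII 457201 passed. XII 457201 was deleted in 6.59% and 7.05% of Seb1-HTP reads, from 10 and 12 fragments, and in 0 of 61 and 0 of 26 control reads. The control reads came from 3 and 6 fragments, and 55 of the 61 reads of control 1 were 1 fragment. Their 95% Wilson intervals, which take repeats as separate reads, reach 5.92% and 12.9%. Neither control therefore had the fragments to show a difference. XII 457130 was deleted in 5.796% and 8.07% of Seb1-HTP reads and in 0 of 137 reads of control 2. Of those 137 reads, 62 were 1 fragment whose 5′ end is this base, and only 46 reads of control 2 covered XII 457131. Reads that end at the base could hardly list it as deleted, so that the 0 is a weak comparison. The 214 deleted reads of Seb1-HTP 1 were 2 fragments (28 in Seb1-HTP 2). The deleted reads of Seb1-HTP 1 were 6 fragments at XII 457131 and 7 at XII 457135. Among positions with at least 20 reads in the controls, the most deleted was XII 457241, at 19.4% of 62 reads in control 2, 0 of 56 in control 1, and 0.250% and 2.46% with Seb1-HTP.

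Among positions with at least 100 reads, the highest percentages belonged to 1 Seb1-HTP library each. XII 456377 was deleted in 73.3% of 180 reads of Seb1-HTP 1 and in 0 of 21 reads of Seb1-HTP 2. XII 456310 was deleted in 62.5% of 626 and 0 of 109 reads, and XII 457382 in 0 of 552 and 30.0% of 347. These 3 positions, named after their values were seen, were covered by at most 1 read of each control and did not repeat between the Seb1-HTP libraries. Thinner positions, with at least 20 reads, reached more. XII 457544 was deleted in 59 of 62 and 0 of 37 Seb1-HTP reads. XII 457589 was deleted in 77 of 84 and 74 of 92 Seb1-HTP reads (6 and 24 fragments), against 0 of 16 reads of control 2, which were 1 fragment. The position with the most deletions in control 2, XII 457594, had 16 deletions and lies close to XII 457589. Whether that 1 fragment carries them was not tested.

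**Figure D5:**
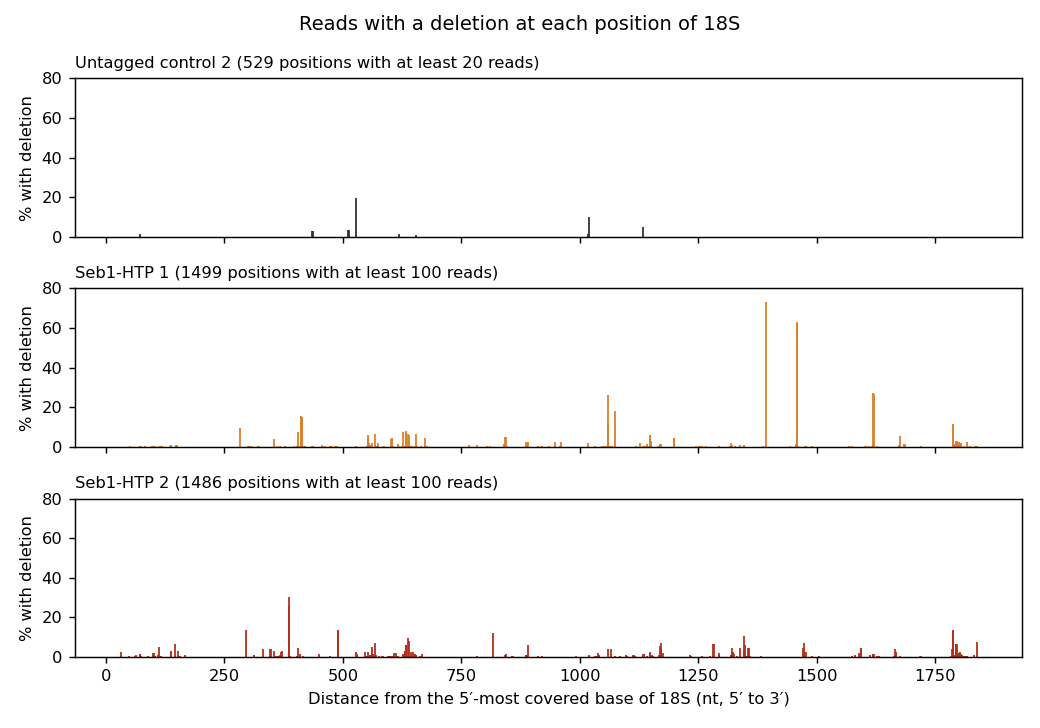
Percentage of reads with a deletion at each position of 18S against the distance from the 5′-most covered base, for control 2 (positions with at least 20 reads) and the Seb1-HTP libraries (at least 100 reads). The tallest bars, 73.3% in Seb1-HTP 1 and 30.0% in Seb1-HTP 2, stand in 1 library only, while XII 455981 on the far right reaches 11.4% and 13.1%.

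Genes that work with 18S were read for comparison from a list of small-subunit proteins (RPS genes), RNAs of 18S maturation, 40S assembly factors and the precursor RDN37. Of its 69 features named in the files, 18 reached 10 reads and were tested (8 of 47 RPS genes, 5 of 6 RNAs, 3 of 14 assembly factors and both precursor copies), and 0 were called in either direction by edgeR or DESeq2, with 0 at an unadjusted p under 0.05. Over all 1208 features the shares called were 0.579% higher and 0.248% lower, and 20 features had an unadjusted p under 0.05, so that a count of 0 among 18 is near the background. Their median log2 fold change was 4.74, against 4.86 for all features, and 10 of the 18 had no control read. RPS4A, a protein of the small subunit, had 0, 0, 10 and 161 reads, and snR17a, the U3 RNA that guides early cleavages of the precursor, had 0, 0, 3 and 59. IMP4, a U3-associated assembly factor, had 0, 0, 3 and 55. The Seb1-HTP libraries thus differed widely from each other in these 3 features, and the controls were at 0. The precursor RDN37-1, whose records include 18S, 5.8S and 25S, had a log2 fold change of -0.20 with an SE of 0.14 (adjusted p = 0.634 by edgeR).

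Among the 59 features with at least 100 reads that no record naming the rDNA also names, the one whose level across the 4 libraries was most like that of 18S was YLR162W, with a root mean square difference of 0.50 in log2 reads per 1000000 (pseudocount 1), each feature centred on its own mean. It had 59, 397, 11691 and 8440 reads. The next were UPC2 at 1.25, with 1 read in each control, and RRT15 at 1.31. YLR162W and RRT15 are rDNA-like reading frames, so that their likeness to 18S is no independent match, and whether their reads come from rRNA was not tested. The likeness was measured over 4 libraries only.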

How the data were processed

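CRAC was measured in 2 untagged control and 2 Seb1-HTP libraries of S. pombe. Per the file headers, the deposited files are read counts per mapped interval from Counters 1.4.2, with feature names and with substituted or deleted positions. Novoalign 2.0.4 and the build ASM294v2 are named in the submitters' processing notes. The deposited records lie on S. cerevisiae chromosomes. The S. pombe genome at hand was therefore not used for positions, and no sequence is shown.

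From these counts, 18S reads were selected by name and strand, and the copies were superimposed at the shift shared by most intervals. Reads of records naming no feature, left out throughout, were 1.61% and 0.334% in the controls against 2.12% and 4.90% with Seb1-HTP. The raw reads numbered 35034, 202528, 3452998 and 3946246, of which 18.6%, 33.6%, 12.5% and 8.91% mapped. Levels were tested with edgeR 4.0.16 (quasi-likelihood, R 4.3.3) over all features, or over all 50-nt rDNA windows, with at least 10 reads, named reads as totals and Benjamini-Hochberg adjustment at 0.05. For single values per library the test was the exact two-sided permutation test. Intervals are 95% Wilson intervals for shares and exact ones for ratios of counts, and a count of 0 was read against 3 reads. A position listed as both substituted and deleted counted as both. Coverage, and the percentages per position drawn from it, count every base of the mapped interval, including bases between paired reads that may not have been sequenced. Alternatives were DESeq2 1.42.0, TMM factors, totals without 25S, other filters, windows and read placements, distinct fragments, reads of at least 25 nt, single copies, thinning, a replicate block and single libraries left out. Simulated counts holding 16-fold changes served to check the fits. At the fitted dispersion, 0 of 100 raised and 0 of 100 lowered features were recovered. For rDNA windows it was 3 of 10 and 2 of 10, and for shares within 18S 1 of 4 and 1 of 4. At a dispersion of 0.1 it was 88 and 6 features, 10 and 8 windows, and 3 and 4 shares. Counts of 0 called for 18S shares and the small-subunit list therefore do not show that differences were absent.

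The windows, ends and positions named are those with the highest mean values or the smallest p in each group. From the small-subunit list, those with the smallest p were eligible to be named. The members and lists were chosen with earlier results of these data known. The replicate numbers do not pair the libraries, since there are only 2 pairs and the labels name no shared batch (deviations of same-numbered libraries from their group means correlated with r = 0.102 over 1208 features and 0.192 over the 37 windows of 18S).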

Additional observations from a re-analysis of the deposited data

Results flagged for a closer look

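Reads on the plus strand of chromosome XII that name RDN18-1 or RDN18-2, opposite to 18S, were not used in any comparison. There were 12 in Seb1-HTP 1 and 32 in Seb1-HTP 2, and 0 in each control. They made up 0.0243% (95% Wilson interval 0.0139 to 0.0425%) and 0.0811% (0.0574 to 0.114%) of the 18S reads of both strands. They came from 9 and 30 distinct fragments with mean lengths of 44.4 and 42.2 nt. The shallower controls, with floors of 1.64% and 0.395%, could not have shown such shares.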

How the results depend on the processing

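The shares of 18S and of reads with a deletion or substitution kept their direction under all 10 and 8 alternatives run for each. The mean length difference turned with control 2 left out (-5.05 nt) and with Seb1-HTP 1 left out (-0.412 nt). Over single libraries left out, the difference ran from -5.05 to 15.9 nt. Distinct fragments per 100 18S reads turned with thinning, from -14.2 to 42.8 (Seb1-HTP minus control). The RDN18-1 and RDN18-2 calls were lost with DESeq2 (log2 fold changes 2.66 and 2.64), TMM factors (4.38 and 4.29), distinct fragments (1.64 and 1.77) and totals without 25S (0.74 and 0.69). They were also lost with either Seb1-HTP library left out, and over single libraries left out the log2 fold changes ran from 2.13 to 3.49 and 2.17 to 3.32. The 11 higher windows of 18S became 5 of 19 with 100-nt windows, 0 with TMM factors, 1 with distinct fragments, 1 with totals without 25S and 0 to 21 with a library left out. The 0 lower windows stayed at 0 except for 1 without control 2, a range of 0 to 1. The 0 windows with a larger part of 18S reads became 4 with DESeq2, 1 with windows shifted by 25 nt, and 0 to 5 with a library left out, and those with a smaller part 4 with DESeq2 and 0 to 3 with a library left out. With the replicate number as a block, 2 windows of 18S were higher, and RDN18-1 and RDN18-2 kept their calls (log2 fold changes 2.81 and 2.75). TMM factors and totals without 25S moved the median log2 fold change of all rDNA windows by -0.80 and -2.34. The cause of these changes was not tested. The 183 reads of control 1 limit every 18S value.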
